A study of Gallus gallus with 6 samples.

Results

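RNA levels of 9 genes of superoxide production and of the defence against oxidants were followed in HD11 cells, a chicken macrophage-like line. The genes were taken by symbol and encode 4 parts of the phagocyte NADPH oxidase (CYBB, CYBA, NCF4, RAC2), the transcription factor NRF2 (NFE2L2) and 4 enzymes or enzyme subunits of antioxidant defence (GCLC, GCLM, TXNRD1, SOD2). All 9 were found among the 14903 genes of the deposited tables, and all 9 passed the filter on low counts, with at least 411 reads in every library. In the study, wild-type HD11 cells were stimulated for 3 h with 100 ng/mL recombinant chicken IFN-beta (interferon beta, an antiviral type I cytokine), which gave 3 libraries. Another 3 libraries came from wild-type HD11 cells labelled mock, described in the treatment protocol as untreated and with no time stated. HD11 is an established line transformed with a retrovirus that carries a myc oncogene, so the groups share that background, and the data come from 1 line at 1 time after stimulation.

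The phagocyte oxidase carries electrons from cytosolic NADPH across a membrane to oxygen and so makes superoxide, which phagocytes direct at ingested microbes. Its membrane core is formed by gp91phox (CYBB) and p22phox (CYBA), and activity depends on cytosolic subunits, among them p40phox (NCF4), and on a GTP-bound RAC protein. NRF2 is held in check by KEAP1-dependent degradation, is released under oxidative or electrophilic stress, and activates genes for glutathione and thioredoxin metabolism, while SOD2 converts superoxide to hydrogen peroxide in mitochondria.

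Libraries held 15665594 to 15885227 counts. Levels within a comparison are given as scaled CPM, which are counts per 1e6 counts after scaling of the libraries by TMM factors, and levels of different genes are compared as TPM, which corrects for length. Fold changes are IFN-beta over mock from edgeR's quasi-likelihood test, which is two-sided, and a gene was called at a Benjamini-Hochberg adjusted p under 0.05. Of 11091 genes tested, 46.7% were called, 24.3% as risen and 22.4% as fallen. That balance depended on the scaling. With library size alone 15.6% rose and 36.1% fell, since the median log2 fold change of all genes then stood at -0.094. Of the genes listed as macrophage markers, 10 of 10 were detected. Their summed level was 5694 to 5815 scaled CPM in IFN-beta and 4899 to 5052 in mock. Of them 4 rose (SPI1, PTPRC, CD74, TLR4) while 4 fell (CSF1R, ITGB2, MERTK, LAPTM5). The 3 heterophil markers found summed to 343 to 359 scaled CPM in IFN-beta and 421 to 462 in mock, nearly all of it CSF3R, the receptor of granulocyte colony-stimulating factor, which fell to 347 scaled CPM in IFN-beta, against 439 in mock. The 3 B cell markers found summed to 8.77 to 9.74 scaled CPM in IFN-beta and 9.71 to 11.9 in mock. Nearly all of that was BLNK, named SH2D6 in RefSeq, with means of 8.8 in IFN-beta and 9.9 in mock. The markers of T cells, red cells and thrombocytes, and fibroblasts and epithelium summed to at most 1.11 in IFN-beta and 1.18 in mock. The part of these markers in the results below was not tested. In these bulk libraries a change in all cells and a change in a share of them cannot be told apart.

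Of the 9 genes, 3 rose, 0 fell and 6 did not pass by edgeR. The number that fell was also 0 at an unadjusted p under 0.05 and 0 by DESeq2. NFE2L2 and NCF4 rose by similar amounts, 1.38-fold each, and CYBB rose 1.09-fold. The share that rose, 3 of 9, stood beside 24.3% of all genes tested. The median log2 fold change of the 9 genes was 0.045, against -0.0010 over all genes tested. In each of the 3 that rose, every IFN-beta library lay above every mock library on the scaled CPM, as was the case for 27.6% of all genes tested, and none of the 9 had every mock library above every IFN-beta library, which held for 26.3% of all genes. In the authors' deposited table the same 3 of the 9 genes had an adjusted p under 0.05, with log2 fold changes of 0.47 for NFE2L2, 0.46 for NCF4 and 0.12 for CYBB, and 14.8% of its genes rose and 12.3% fell by that criterion.

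**Figure D1:**
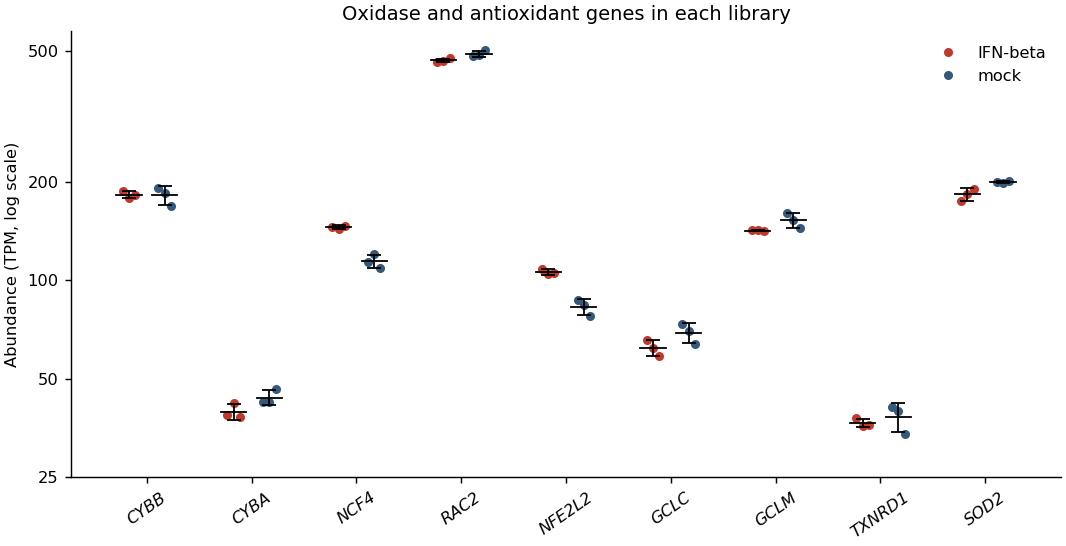
Abundance of the 9 genes in TPM (log axis) in each of 3 IFN-beta libraries (red) and 3 mock libraries (blue); points are libraries, bars are means with SD. NCF4 and NFE2L2 have all IFN-beta libraries above all mock libraries, RAC2 is the most abundant of the genes and TXNRD1 the least.

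By TPM, the order of the 9 genes was the same in both groups except that NCF4 and GCLM changed places, and their summed level was 1366 TPM in IFN-beta and 1374 TPM in mock. RAC2, the haematopoietic RAC GTPase of the oxidase, was the most abundant, at 470 ± 5.95 TPM in IFN-beta and 492 ± 9.89 TPM in mock (SD, n = 3 each). SOD2 followed with 183 ± 7.88 TPM in IFN-beta and 199 ± 1.35 TPM in mock, and CYBB was next with 183 ± 4.46 TPM in IFN-beta and 182 ± 11.7 TPM in mock. The ranges of SOD2 and CYBB overlapped in IFN-beta and not in mock. NCF4 stood above GCLM in IFN-beta, with 143 to 147 TPM for NCF4 and 142 TPM for GCLM in each library, and below it in mock, with 109 to 120 TPM for NCF4 and 145 to 161 TPM for GCLM. On this scale 2 of the 9 genes, NCF4 and NFE2L2, had every IFN-beta library above every mock library, and 4, namely CYBA, RAC2, GCLM and SOD2, had every IFN-beta library below, beside 15.6% and 41.6% of all genes tested. The lower places went to NFE2L2, GCLC, CYBA and TXNRD1 in both groups. TXNRD1 was the least abundant of the 9, at 36.6 ± 1.08 TPM in IFN-beta and 38.2 ± 3.83 TPM in mock, above 76.7% of all detected genes in IFN-beta and 77.0% in mock.

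The core of the oxidase changed little. CYBB, the electron-carrying subunit, had 437, 427 and 444 scaled CPM in the IFN-beta libraries and 418, 403 and 380 in the mock libraries. The groups did not overlap, but the lowest IFN-beta library was only just above the highest mock library. The log2 fold change was 0.12 (SE 0.038, 95% interval 0.044 to 0.20), with an edgeR adjusted p of 0.0116. CYBB did not pass with upper quartile factors (0.063, adjusted p 0.150), with library size alone (0.030, adjusted p 0.515) or on log2(TPM + 1) by limma (0.0072, adjusted p 0.909), nor without IFN-beta replicate 3 (0.11, adjusted p 0.0515). Of its 17 alternatives 10 called it, and the lowest adjusted p was 0.000387, in edgeR with the replicate block. The test against a 1.5-fold change, which asks a different question, did not call it.

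CYBA, the partner that stabilises CYBB in the membrane, had 26.7, 29.9 and 27.6 scaled CPM in IFN-beta and 27.3, 27.5 and 31.2 in mock. The groups overlapped, and the log2 fold change was -0.031 (95% interval -0.18 to 0.11, edgeR adjusted p 0.748). It was the gene with the fewest reads of the 9 and the widest interval. CYBB exceeded CYBA in TPM by 4.84, 4.25 and 4.79 times in the IFN-beta libraries and by 4.53, 4.36 and 3.64 times in the mock libraries. The ratios overlapped, with a mean log2 ratio 0.15 higher in IFN-beta and an exact two-sided permutation p of 0.3, where the smallest p that 3 against 3 libraries allow is 0.1.

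NCF4, the p40phox subunit that binds a phosphoinositide of phagosome membranes, rose. It had 196, 197 and 205 scaled CPM in IFN-beta and 143, 150 and 141 in mock. All IFN-beta libraries were well above all mock libraries, and the log2 fold change was 0.46 (SE 0.039, 95% interval 0.38 to 0.54, edgeR adjusted p 6.4e-09). It remained called under each alternative scaling and without any 1 library, and 8.18% of tested genes had a larger log2 fold change. The parvalbumin gene PVALB overlaps NCF4, and LOC121109448 overlaps CYBB, in the RefSeq annotation of the later assembly GRCg7b. RAC2 had 250.0, 259 and 269 scaled CPM in IFN-beta and 243, 247 and 264 in mock. The groups overlapped, with a log2 fold change of 0.045 (95% interval -0.038 to 0.13, adjusted p 0.375) that was negative with library size alone.

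**Figure D2:**
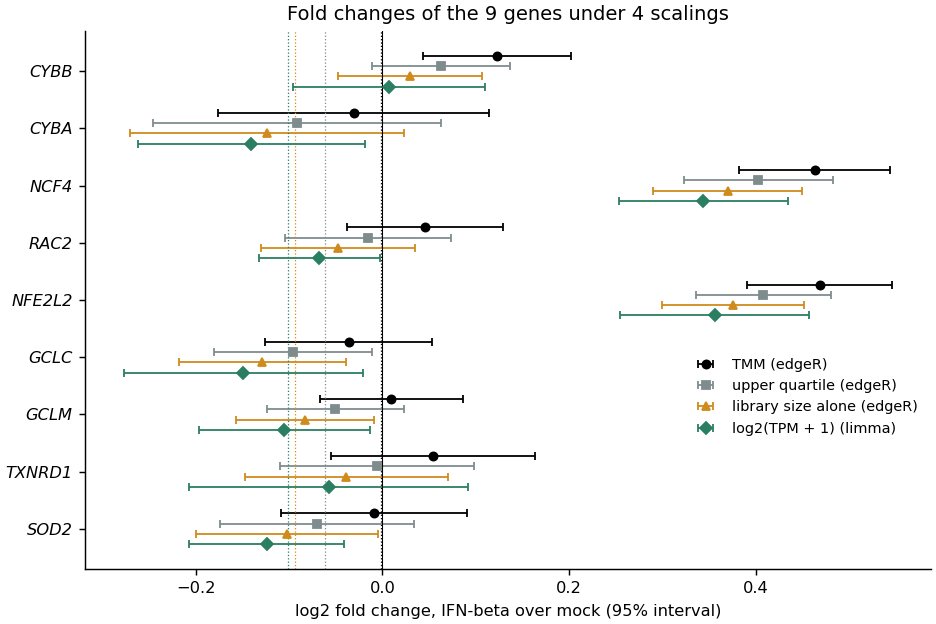
Log2 fold change of IFN-beta over mock with its 95% interval for the 9 genes under TMM, upper quartile and library size scaling in edgeR and on log2(TPM + 1) in limma; dotted lines are the median of all genes under each. NCF4 and NFE2L2 lie above 0 under all 4, while the interval of CYBB excludes 0 with TMM and not with the other 3.

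NCF1 rose and CYBC1 and NOX5 fell among the other oxidase genes. In a list of oxidase partners and regulators, 19 of 22 were found and 13 tested, of which 2 rose, 7 fell and 4 did not pass, beside 24.3% risen and 22.4% fallen of all genes tested. The median log2 fold change was -0.11. Without mock replicate 2, IFN-beta replicate 2 or IFN-beta replicate 3 the number that fell was 5, as it was by DESeq2. With library size alone 1 rose and 10 fell, beside 15.6% risen and 36.1% fallen of all genes tested. NCF1, the organising p47phox subunit (named NCF1C in RefSeq), rose with 161, 170 and 162 scaled CPM in IFN-beta and 130, 137 and 141 in mock (log2 fold change 0.28, SE 0.040, edgeR adjusted p 1.3e-05). CYBC1, the chaperone of the CYBB and CYBA pair, listed as C18H17orf62 in the deposited tables, fell with 100.0, 95.8 and 92.3 scaled CPM in IFN-beta and 131, 131 and 128 in mock (-0.44, SE 0.042, adjusted p 4.3e-08). For both genes the groups were apart.

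NOX5, a calcium-regulated oxidase that needs none of these subunits in human cells, fell with 29.2, 30.4 and 30.0 scaled CPM in IFN-beta and 46.7, 43.7 and 39.8 in mock (-0.54, SE 0.062, edgeR adjusted p 6.4e-07). RAP1A, a small GTPase that copurifies with the human oxidase core, rose by 0.16 (SE 0.036, adjusted p 0.00112), and did not pass with library size alone or on the TPM scale. HVCN1, the proton channel that balances the charge moved by the oxidase, was at 0.815 scaled CPM in IFN-beta and 1.89 in mock and fell (-1.17, adjusted p 0.00216); it was named after its values were seen. NOX1 and NOX4 were not tested, with 3 and 1 reads over the IFN-beta libraries and 3 and 1 over the mock libraries.

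NFE2L2 rose, while the genes that control NRF2 or share its sites went both ways. NFE2L2 had 235, 230.0 and 238 scaled CPM in IFN-beta and 175, 169 and 164 in mock. The groups were well apart, and the log2 fold change was 0.47 (SE 0.037, 95% interval 0.39 to 0.55, edgeR adjusted p 2.7e-09). In limma on log2(TPM + 1) it was 0.36, and 0.46 above the median of all genes on that scale. Of the 13 tested genes that control NRF2 or share its sites, 5 rose, 4 fell and 4 did not pass, beside 24.3% risen and 22.4% fallen of all genes tested. The median was 0.070, and -0.023 with library size alone. There 4 rose and 5 fell, beside 15.6% risen and 36.1% fallen of all genes tested.

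MAFF, a small MAF protein of the kind that pairs with NRF2 on DNA, had 27.2, 30.0 and 26.7 scaled CPM in IFN-beta and 6.92, 6.45 and 7.22 in mock, a log2 fold change of 2.02 (SE 0.090, edgeR adjusted p 2.6e-13). MAFK, another small MAF gene, rose by 0.61 (SE 0.043, adjusted p 5.4e-10), while MAFG, named after its values were seen, fell by 0.85 and was at 3.22 scaled CPM in IFN-beta and 5.80 in mock. The 3 small MAF genes thus went both ways. BACH1, a repressor that competes with NRF2 for these sites, had 179, 178 and 181 scaled CPM in IFN-beta and 127, 120 and 117 in mock (0.56, SE 0.040, adjusted p 4.4e-10). SQSTM1, the autophagy receptor p62 that can sequester KEAP1, had 236, 264 and 269 scaled CPM in IFN-beta and 158, 158 and 171 in mock (0.66, SE 0.047, adjusted p 5.9e-10). KEAP1 itself had 13.1, 10.8 and 11.4 scaled CPM in IFN-beta and 10.6, 12.5 and 14.1 in mock, and its groups overlapped (-0.081, adjusted p 0.571). By TPM it was above 50.3% of detected genes in IFN-beta and 50.7% in mock. BACH2, also named after its values were seen, fell (-0.885, edgeR adjusted p 0.000136), at 2.41 scaled CPM in IFN-beta and 4.46 in mock. NFE2L1 (-0.24, adjusted p 0.000124) and BTRC (-0.23, adjusted p 0.00194) were named in the same way and fell. With MAFG these were the 4 genes of the list that fell, beside 5 that rose. CUL3, also named after its values were seen, was among those 5 (0.15, edgeR adjusted p 0.00252). Its groups overlapped on TPM.

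**Figure D3:**
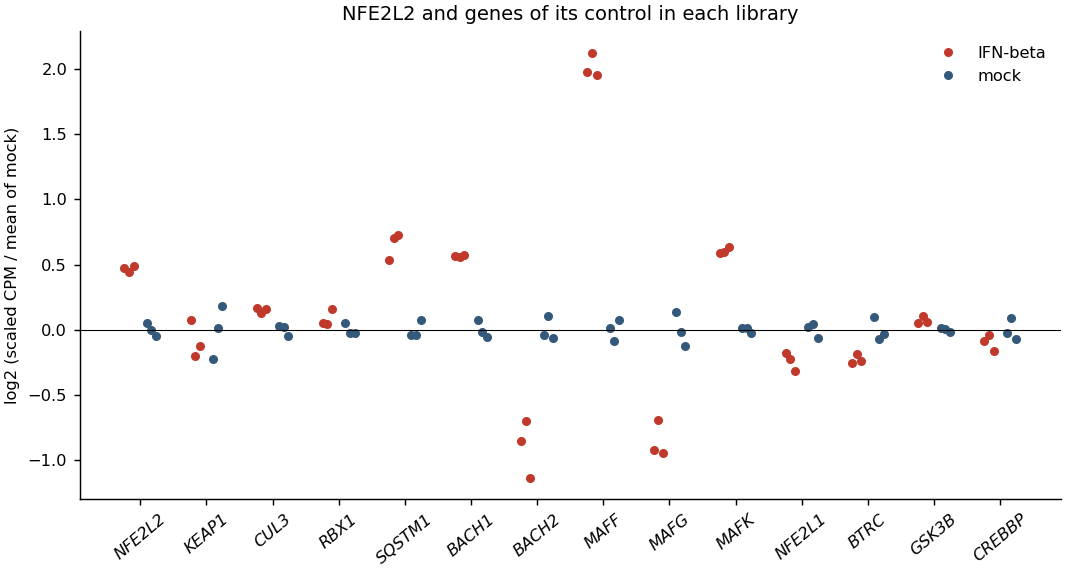
Scaled CPM of NFE2L2 and 13 genes of its control in each library, as log2 of the ratio to the mean of the mock libraries; IFN-beta libraries are red and mock libraries blue. MAFF has the largest rise of the genes shown, SQSTM1, MAFK, BACH1 and NFE2L2 lie between 0.4 and 0.8, and KEAP1 overlaps between groups.

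Neither subunit of glutamate-cysteine ligase, which makes the first step of glutathione synthesis, passed. GCLC, the catalytic subunit, had 173, 167 and 162 scaled CPM in IFN-beta and 181, 172 and 162 in mock, a log2 fold change of -0.036 (95% interval -0.13 to 0.053, edgeR adjusted p 0.519). GCLM, the modifier subunit that lowers feedback inhibition, had 302, 310 and 315 scaled CPM in IFN-beta and 319, 304 and 297 in mock, a log2 fold change of 0.0096 (95% interval -0.067 to 0.086, adjusted p 0.854). The groups of each gene overlapped, and the intervals leave room for a change of at most 0.13 in either direction on this scale. With library size alone GCLC was called as fallen (-0.13, adjusted p 0.0177), and GCLM was at -0.083 (adjusted p 0.0561). DNTTIP2 overlaps GCLM in RefSeq annotation of GRCg7b, and GCLM was the only one of the 9 with counts that were not whole, so the division of reads between these genes is uncertain.

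The balance of both ligase subunits was close between groups. GCLM exceeded GCLC in TPM by 2.16, 2.29 and 2.41 times in IFN-beta and by 2.19, 2.19 and 2.27 times in mock, with overlap and an exact permutation p of 0.5. Around these genes, 4 of 19 tested genes of the glutathione list rose, 5 fell and 10 did not pass, beside 24.3% risen and 22.4% fallen of all genes tested. The median log2 fold change was -0.029, and 0.054 without mock replicate 3 and 0.023 without IFN-beta replicate 1, where 2 rose in each case, as by DESeq2. Without mock replicate 2, 3 rose and 3 fell. On log2(TPM + 1), 1 of 17 rose and 9 fell, beside 13.5% risen and 37.6% fallen of all genes tested on that scale. GSS, the synthetase of the second step, was named after its values were seen and fell with 51.6, 55.7 and 52.5 scaled CPM in IFN-beta and 56.1, 61.1 and 62.8 in mock (-0.17, SE 0.055, adjusted p 0.0149). SLC7A11, the cystine transporter that feeds glutathione synthesis, rose to 10.6, 11.0 and 9.49 scaled CPM in IFN-beta, against 4.14, 4.85 and 4.88 in mock (1.16, SE 0.11, edgeR adjusted p 7.0e-08). CHAC2, which degrades glutathione, rose by 0.30 (SE 0.074, adjusted p 0.00221) and did not pass on the TPM scale. GSTT1, a glutathione transferase, fell by 0.87 (SE 0.12, adjusted p 4.8e-06), and ABCC1, an exporter of glutathione conjugates, fell by 0.20 (SE 0.045, adjusted p 0.00116).

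TXNRD1, the selenoenzyme that reduces thioredoxin with NADPH, had 98.9, 95.9 and 98.7 scaled CPM in IFN-beta and 100.2, 97.1 and 85.4 in mock. Mock replicate 3 was below the other 5 libraries, the groups overlapped, and the log2 fold change was 0.054 (95% interval -0.055 to 0.16, edgeR adjusted p 0.422). It was -0.012 without that library. Of 16 tested genes for thioredoxins, peroxiredoxins and glutaredoxins, 4 rose, 3 fell and 9 did not pass, beside 24.3% risen and 22.4% fallen of all genes tested (median 0.061, and -0.032 with library size alone). The number that rose was 2 without mock replicate 2, IFN-beta replicate 2 or IFN-beta replicate 3, and 1 with upper quartile factors, with library size alone or on log2(TPM + 1). Of all 11091 genes tested by edgeR, 2020 rose with upper quartile factors. With library size alone 15.6% of all genes tested rose, and on log2(TPM + 1) 13.5%. The number that fell was 2 without mock replicate 2 or IFN-beta replicate 2. PRDX1, an abundant cytosolic peroxidase that uses thioredoxin, rose to 1262, 1262 and 1345 scaled CPM in IFN-beta, against 959.8, 928 and 967 in mock (0.44, SE 0.036, adjusted p 3.9e-09). TXN, the cytosolic thioredoxin, rose by 0.16 (SE 0.044, adjusted p 0.00653), but did not pass with library size alone, with upper quartile factors, on the TPM scale or without IFN-beta replicate 3. TXNIP, the thioredoxin-binding inhibitor, fell by 0.37 (SE 0.054, adjusted p 1.4e-05), and GLRX5, a mitochondrial glutaredoxin of iron-sulphur cluster assembly, fell by 0.22 (SE 0.041, adjusted p 0.000251).

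SOD2, the mitochondrial superoxide dismutase, had 105.5, 114 and 121 scaled CPM in IFN-beta and 113, 112 and 118 in mock. The IFN-beta libraries spread to either side of the mock libraries, and the log2 fold change was -0.0093 (95% interval -0.11 to 0.090, edgeR adjusted p 0.893). On TPM every IFN-beta library was below every mock library, as were 41.6% of all tested genes, and limma on log2(TPM + 1) called SOD2 as fallen (-0.12, adjusted p 0.0180), which is -0.023 relative to the median of all genes on that scale. SOD2 was less abundant than SOD1, the cytosolic dismutase, with TPM ratios of 0.358, 0.365 and 0.399 in IFN-beta and 0.361, 0.358 and 0.353 in mock. The ratio overlapped between groups (exact permutation p 0.3). SOD1 did not pass (-0.079, adjusted p 0.144), while CAT, the catalase that removes hydrogen peroxide, fell with 84.3, 85.0 and 89.0 scaled CPM in IFN-beta and 107, 106 and 99.3 in mock (-0.27, SE 0.045, adjusted p 5.3e-05). Of the 3 tested genes in the list of other dismutases and catalase, only CAT was called, beside 24.3% risen and 22.4% fallen of all genes tested. The number that fell was 2 with upper quartile factors, with library size alone or on log2(TPM + 1). Of all 11091 genes tested by edgeR, 3356 fell with upper quartile factors. With library size alone 36.1% of all genes tested fell, and on log2(TPM + 1) 37.6%.

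**Figure D4:**
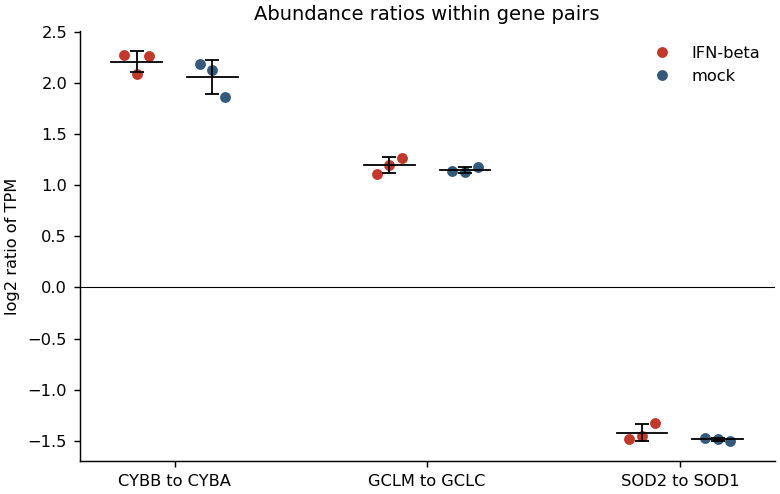
Log2 ratio of TPM within 3 gene pairs in each library, with mean and SD; IFN-beta libraries are red and mock libraries blue. The groups overlap for each pair, with CYBB and GCLM above their partners and SOD2 below SOD1.

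Of 18 tested genes known as NRF2 targets, 9 rose, 3 fell and 6 did not pass, beside 24.3% risen and 22.4% fallen of all genes tested. The median log2 fold change was 0.13. The balance depended on the scaling. With library size alone the median was 0.034, with 6 risen genes and 6 fallen ones, beside 15.6% risen and 36.1% fallen of all genes tested. On the log2(TPM + 1) scale 16 could be tested, of which 5 rose and 6 fell (median -0.034). Of all genes tested on that scale, 13.5% rose and 37.6% fell. Without mock replicate 2 the median was 0.065. The number that rose was 7 by DESeq2 and without mock replicate 2, IFN-beta replicate 1 or IFN-beta replicate 3. It was 6 with upper quartile factors, where 2020 of all 11091 genes tested rose. Without IFN-beta replicate 2 the number that fell was 2. GCLC, GCLM and TXNRD1, which are targets of NRF2 in mammals, were not counted in that list and did not pass. Besides SLC7A11 and PRDX1, OSGIN1, an oxidative stress-induced growth inhibitor, rose to 16.8, 17.4 and 17.7 scaled CPM in IFN-beta, against 9.46, 9.71 and 10.1 in mock (0.83, SE 0.086, edgeR adjusted p 1.4e-07). ABCC3, an exporter of organic anions, fell by 0.94 (SE 0.076, adjusted p 3.7e-09). HMOX1, a haem oxygenase gene, was named after its values were seen. It fell by 0.15 (SE 0.038, adjusted p 0.00302), with 134, 137 and 141 scaled CPM in IFN-beta and 148, 155 and 154 in mock.

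The oxidase and the reductases draw on NADPH. In the list of NADPH supply genes, 4 of 14 tested genes rose, 2 fell and 8 did not pass, beside 24.3% risen and 22.4% fallen of all genes tested. The median was -0.022. The balance turned with library size alone (median -0.11) and on the log2(TPM + 1) scale, with 3 risen genes and 8 fallen ones in each case. That of all genes tested turned too, to 15.6% risen and 36.1% fallen with library size alone. On log2(TPM + 1) it was 13.5% risen and 37.6% fallen. The number that fell was 1 without mock replicate 3, IFN-beta replicate 1 or IFN-beta replicate 2. NADK, the kinase that makes NADP from NAD, rose to 305, 294 and 294 scaled CPM in IFN-beta, against 193, 190 and 179 in mock (0.67, SE 0.038, edgeR adjusted p 1.3e-11). MTHFD2, a mitochondrial folate dehydrogenase, rose by 0.81 (SE 0.046, adjusted p 1.3e-11). TALDO1, of the pentose phosphate pathway, rose by 0.22 (SE 0.038, adjusted p 7.6e-05). TKT, of the same pathway and named TKTL1 in RefSeq, rose by 0.12 (SE 0.032, adjusted p 0.00317) but did not pass with upper quartile factors, with library size alone or on the TPM scale.

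**Figure D5:**
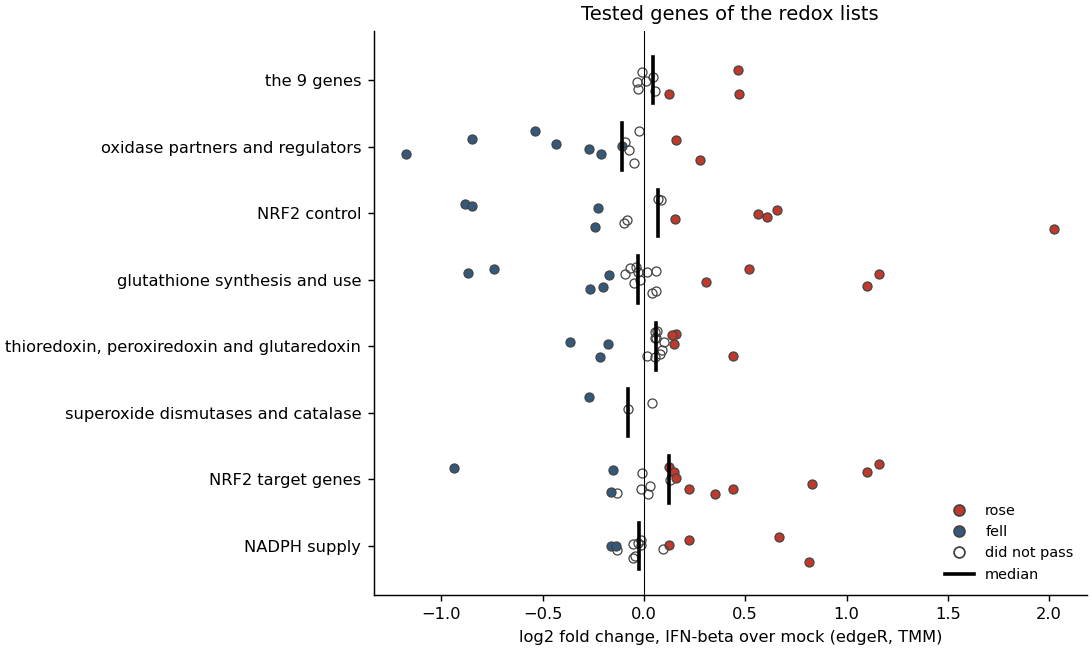
Log2 fold change of IFN-beta over mock for each tested gene of the 9 and of 7 lists of related genes; filled points were called as risen (red) or fallen (blue), open points did not pass, and bars are medians. List medians lie between -0.11 and 0.13, and the gene with the largest fold is MAFF in the NRF2 control list.

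Over the 7 lists, with each gene counted once, 21 of 86 tested genes rose, 24 fell and 41 did not pass, beside 24.3% risen and 22.4% fallen of all genes tested. With library size alone 15 rose and 38 fell, beside 15.6% risen and 36.1% fallen of all genes tested. The profiles most like those of 3 of the 9 genes were looked up among 9346 other genes, by the root mean square difference in log2 CPM over the 6 libraries with each gene centred on its mean. For CYBB these were TRAPPC8 (0.0145), TMEM263 (0.0151) and ZDBF2 (0.0154). For NFE2L2 they were POLDIP3 (0.00896), ZNF365 (0.0177) and NDC80 (0.0191), and for SOD2 they were THOC3 (0.0185), MRPL40 (0.0210) and TAF1B (0.0222). None of them belongs to the 7 lists.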

How the data were processed

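Paired-end RNA sequencing of total RNA was available for 6 libraries in 1 labelled batch, and groups and replicate numbers came from the sample titles. The authors deposited expected counts per gene (2322 of 14903 genes have a count that is not whole), TPM, and a table of their own log2 fold changes with p-values. DESeq2 and the build GRCg6a are named in the submitters' processing notes. Aligner, counter, annotation and strand setting: not given in the sources used here, so overlapping genes are uncertain. No coordinates are printed, and RefSeq annotation of GRCg7b served only for names and neighbours. In it HVCN1, MAFK and NADK overlap TCTN1, GAA2 and GNB1, respectively. These list genes had counts that were not whole, so their division of reads is uncertain too.

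Rounded counts entered the quasi-likelihood test of edgeR 4.0.16 (R 4.3.3), with filterByExpr, TMM factors and the group as the only term. The SE is the size of the log2 fold change divided by the root of its F statistic, and the 95% interval follows from it; both are approximate. TPM ratios were compared by exact permutation. The fits were also run on simulated data in which few genes changed, up and down in balance. In the real data 46.7% of genes were called, so the simulation cannot test the choice of scaling. Alternatives were DESeq2 1.42.0, other scalings and filters, the replicate block, glmTreat at 1.5-fold, limma 3.58.1 on log2(TPM + 1) and log2(TPM + 0.1), and leaving out each library.

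The 9 genes and the 7 lists (108 symbols, 98 genes found) were chosen with earlier results of these data known. From each list up to 4 called genes with the smallest adjusted p were named, with the 3 nearest profiles of CYBB, NFE2L2 and SOD2 among genes with at least 5 CPM in the higher group. NOX1, NOX4, HVCN1, KEAP1, CUL3, MAFG, BACH2, NFE2L1, BTRC, GSS and HMOX1 were named after their values were seen. RefSeq names the deposited symbol RBP14L as CCS and DUOX2 as DUOX1. It also names NCF1 as NCF1C, TKT as TKTL1, GSK3B as GSK3A, GGT1 as GGT2, GSTO1 as GSTO2 and RPE as RPEL1. Of the markers, it names MPO as EPX and BLNK as SH2D6. These differences in name were not settled.

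Libraries of 1 group differed beyond sampling noise, with a chi-square of 1.67 to 4.48 times its degrees of freedom over genes with at least 20 counts in a pair. The labels call the replicates independent and biological but name no separate cultures, so the p-values measure the spread between these libraries.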

Additional observations from a re-analysis of the deposited data

How the results depend on the processing

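NCF4 and NFE2L2 kept their call in 16 of 17 alternatives, and the only exception was the test against a 1.5-fold change, where none of the 9 genes passed (NCF4 at 0.46, NFE2L2 at 0.47, CYBB at 0.12) and the genes called numbered 416 risen and 246 fallen, with 0 of the 9, and 4 risen and 1 fallen of the lists. CYBB did not pass with upper quartile factors (0.063), library size alone (0.030), log2(TPM + 1) (0.0072, with or without the filter) and log2(TPM + 0.1) (0.0073). With these scalings the median of all genes lay below 0, by up to 0.11. Relative to that median CYBB was 0.11 to 0.12 in all of those that were set beside it. On log2(TPM + 1) genes moved by unlike amounts, since the added 1 shrinks the folds of genes at few TPM. SLC7A11, at 2.59 TPM in IFN-beta and 1.26 in mock, went from 1.16 with TMM to 0.67. NOX5, at 1.87 TPM in IFN-beta and 2.95 in mock, went from -0.54 to -0.46. These 2 shifts therefore do not show the effect of the TPM scaling alone. With library size alone 1734 genes rose and 4008 fell, 1 of the 9 fell (GCLC, -0.13), and 38 list genes fell. On log2(TPM + 1) 1376 genes rose and 3823 fell, on log2(TPM + 0.1) 1377 and 3815, and without the filter 1395 rose; 1 of the 9 fell on each (SOD2, -0.12), and 12 list genes rose on both with the filter. The sign of genes that did not pass was reversed in the same settings, in the order upper quartile, library size, log2(TPM + 1) with or without the filter, and log2(TPM + 0.1), for RAC2 (-0.015, -0.048, -0.067 and -0.068), GCLM (-0.050, -0.083, -0.11 and -0.11) and TXNRD1 (-0.0059, -0.039, -0.057 and -0.059).

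Leaving out 1 library gave log2 fold changes of 0.087 to 0.16 for CYBB, -0.077 to 0.034 for CYBA, -0.075 to 0.0027 for GCLC, -0.013 to 0.040 for GCLM, -0.012 to 0.10 for TXNRD1 and -0.055 to 0.045 for SOD2, and 2 or 3 of the 9 rose. Over all genes tested, 2338 to 2808 then rose and 2005 to 2622 fell. DESeq2 called 2311 of 11091 genes as risen and 2016 as fallen. The list counts by DESeq2 and without 1 library stand beside these. Same-numbered libraries deviated together only weakly over all genes tested (correlations of 0.067 to 0.083). Counting noise lowers such correlations, so they do not settle whether the numbers pair libraries. The main fit took the libraries as unpaired. With the replicate block the same 3 of the 9 were called, with CYBB at 0.12 (edgeR adjusted p 0.000387). With it 3077 genes rose and 2792 fell, more than the 2697 and 2480 of the main fit. A share of the spread may thus follow the replicate number, which the main fit leaves out. For the 6 genes that did not pass, the 95% intervals of the edgeR fit with TMM factors reached -0.18 and 0.16 at the most. They reached lower with other scalings, to -0.27 for CYBA with library size alone and -0.28 for GCLC on log2(TPM + 1).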
